A study of Mus musculus with 3 samples.

Results

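The genes described here code for proteins that hold cells to each other and to the matrix: integrins, cadherins, protocadherins, claudins and other tight junction proteins, desmosomal proteins, catenins, selectins with their ligand, and adhesion molecules such as Vcam1, Ncam1 and Epcam. The rule that defines them uses gene symbols, not measured values, and takes them from the array rows whose annotation names 1 gene, with the endothelial cadherin Cdh5 left out. The rule found 134 rows of 107 genes among 16281 rows of 10698 genes. Its pattern also takes in 6 genes named for binding an integrin or a catenin or for resembling a catenin (Itgb1bp1, Itgb1bp2, Itgb3bp, Ctnnbip1, Ctnnbl1 and Ctnnal1), which are kept and pointed out where they count. Of the 107 genes, 61 had at least 1 row that was measured (not 0) on all 3 arrays and were tested, 20 had values on 1 or 2 arrays only, and 26 were listed at 0 throughout.

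The RNA came from kidneys of BALB/c mice, with no sort of cells named, so all cell types of the organ were mixed. There was 1 treated group of 3 mice, injected with antibody against the glomerular basement membrane (anti-GBM antibody) and studied 1 day later as a model of glomerulonephritis. The control was 1 pool of kidney RNA from 5 normal BALB/c mice, hybridised in the green (Cy3) channel of every array beside the RNA of 1 anti-GBM mouse in the red (Cy5) channel. The mice are called 11, 12 and 13, after the labels. The labels state neither age, sex and antibody dose nor any treatment of the normal mice. The spread between control mice cannot be seen, and without swapped dyes a dye bias of a row cannot be told apart from a difference in RNA.

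Integrins are pairs of an alpha and a beta chain that bind matrix proteins or counter-receptors on other cells. Leukocytes carry their own integrins and selectin ligands, with which they can roll and stick on activated endothelium, an early step of entry into inflamed tissue. Tubule cells are joined by cadherins, which bind catenins inside the cell, and by claudins, whose mix along the nephron sets what passes between the cells.

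Every value below is a log ratio on the deposited scale, centred on the median of its array. The base of the log is not stated, so folds are given under both bases, 2 and 10, where they help. A value above 0 is likely higher in the anti-GBM kidney, because the labels put that RNA in red and red over green is the usual order, but the direction is not stated, and if it ran the other way every sign would turn. Values are means ± SD over n = 3 mice. Adjusted p-values are Benjamini-Hochberg values of limma's moderated test against 0 over all 7235 genes tested, with 0.05 as the threshold, and "higher", "lower" and "called" are kept for genes past it. A ratio gives no level, so it cannot show how abundant a transcript is in either kidney.

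The upstream sequence of 3 called genes is shown because they include the pair of integrin chains that were called in opposite directions, and an epithelial adhesion gene. RefSeq (GRCm38.p6) promoter entries were matched for 62 of the 107 genes and for 4 of the 8 called ones. Each line gives the 250 bases before the annotated start on the + strand of chr8:128685404-128685653 (Itgb1), chr16:33829415-33829664 (Itgb5) and chr17:87635729-87635978 (Epcam). Capitals mark matches on either strand to CACCTG (the E-box bound by Snail and Zeb factors, known repressors of epithelial genes) or to GGGCGG (the GC box).
Itgb1: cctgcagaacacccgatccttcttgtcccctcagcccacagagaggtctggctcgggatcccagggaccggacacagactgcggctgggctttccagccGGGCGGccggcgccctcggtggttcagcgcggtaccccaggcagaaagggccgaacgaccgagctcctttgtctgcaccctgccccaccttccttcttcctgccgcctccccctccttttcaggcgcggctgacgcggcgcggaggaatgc
Itgb5: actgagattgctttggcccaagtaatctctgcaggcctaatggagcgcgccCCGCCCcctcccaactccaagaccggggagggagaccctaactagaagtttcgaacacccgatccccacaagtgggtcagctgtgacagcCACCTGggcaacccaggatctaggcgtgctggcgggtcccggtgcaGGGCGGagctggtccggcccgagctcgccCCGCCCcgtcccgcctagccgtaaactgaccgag
Epcam: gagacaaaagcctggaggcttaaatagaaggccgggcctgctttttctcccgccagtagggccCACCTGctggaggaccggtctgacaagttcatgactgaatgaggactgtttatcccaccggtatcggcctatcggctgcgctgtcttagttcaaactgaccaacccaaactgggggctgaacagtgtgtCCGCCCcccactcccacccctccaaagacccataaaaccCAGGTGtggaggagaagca
Itgb1 has 0 E-box matches and 1 GC box in this window, Itgb5 has 1 and 3, and Epcam has 2 and 1. None of the 3 windows holds the AP-1 site TGANTCA. Over all 32851 upstream windows of this length in the table, 17.2% hold CACCTG, 32.7% hold GGGCGG and 6.75% hold TGANTCA. These are matches of letters only.

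The test called 3 of the 61 adhesion genes higher (Itgb2, Cldn8 and Itgb1) and 5 lower (Ncam1, Epcam, Cldn23, Pcdh10 and Itgb5), and 53 did not pass. That is 4.92% higher and 8.20% lower, beside 9.48% and 9.97% of all genes tested, and 13.1% called in either direction beside 19.4%. The median log ratio of the 61 genes was -0.030, against -0.0014 for all genes. The median size of a log ratio, whatever its sign, was 0.125 here and 0.139 over all genes, and the median SD between mice was 0.140 and 0.125. The same sign was seen in all 3 mice for 32 of the 61 genes (52.5%), against 56.5% of all genes. Thus the typical log ratio was about as large here as over all genes, and the called genes came from several families. At the level of array rows, 8 of 69 rows passed (11.6%), against 19.6% of all rows, with 3 higher and 5 lower against 9.55% and 10.1% of all rows, and each belonged to a different one of the 8 called genes.

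**Figure D1:**
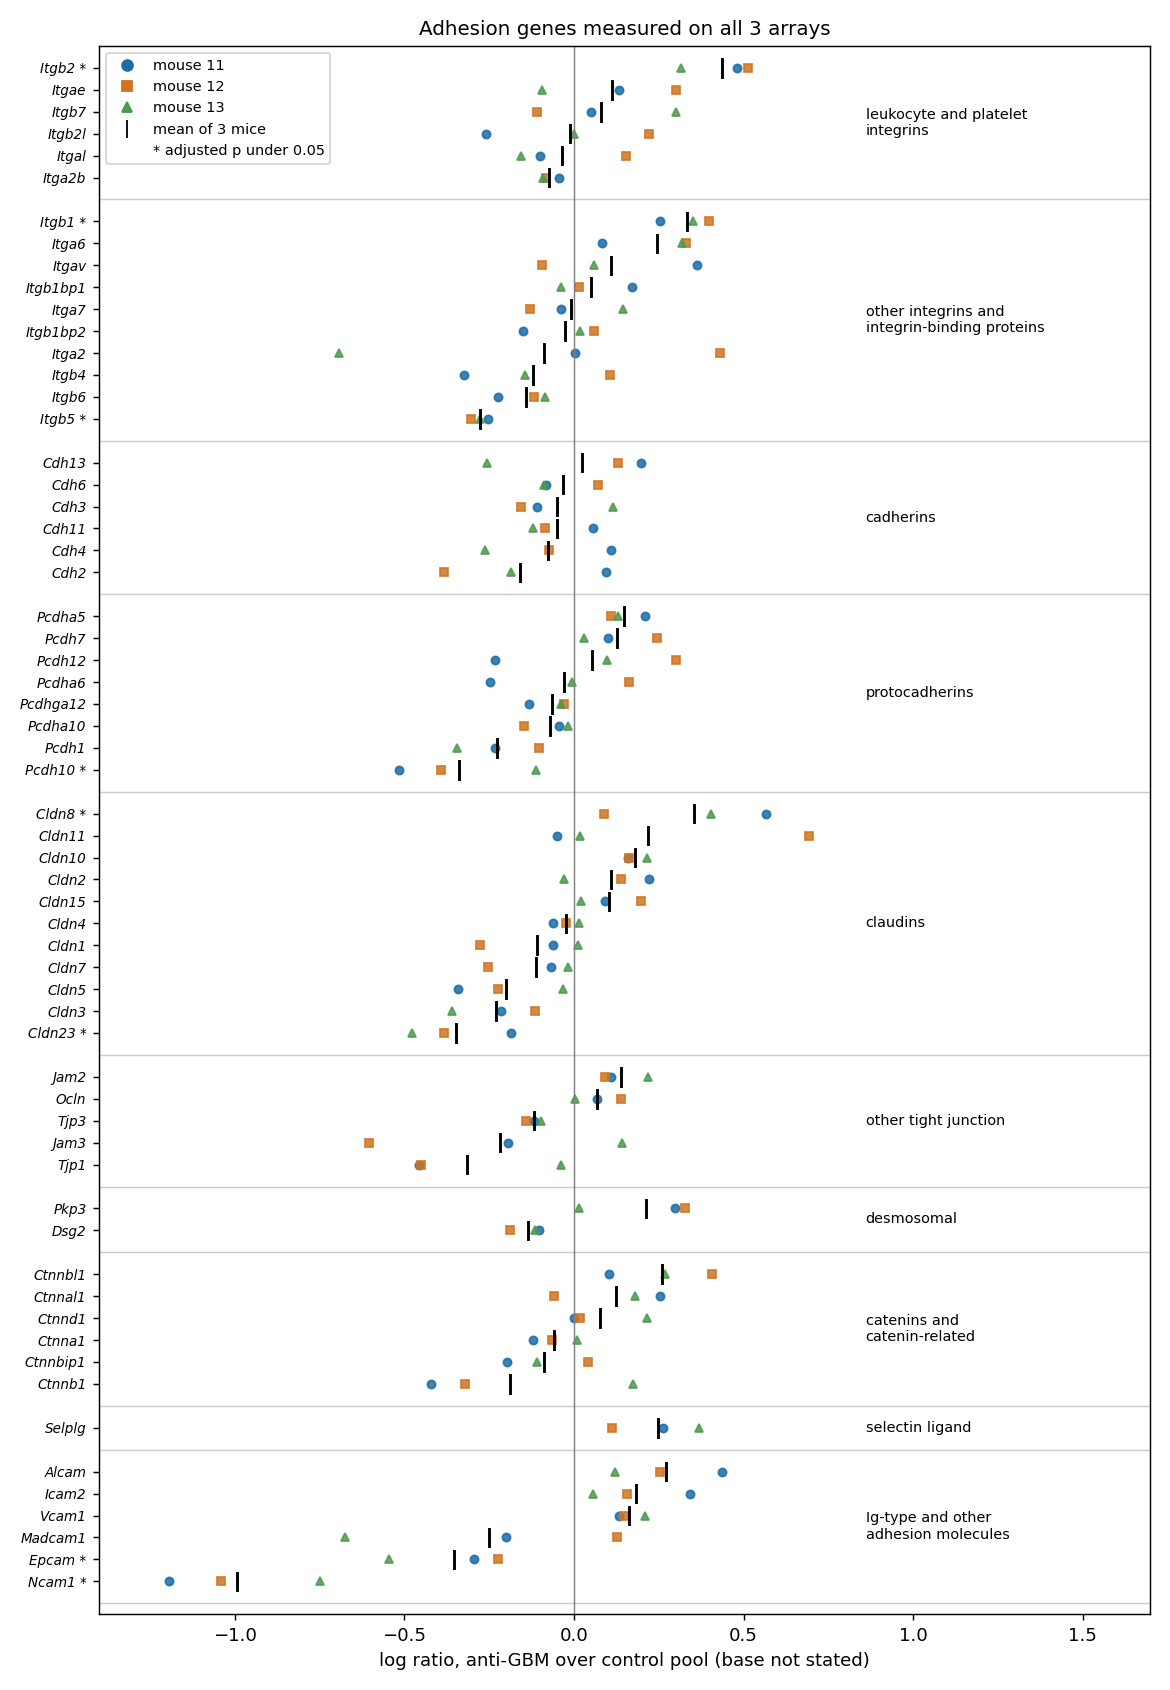
Log ratio (x axis, base not stated) of each of the 61 tested adhesion genes (y axis) in mice 11, 12 and 13, grouped by family, with the mean of the 3 mice as a black bar and an asterisk where the adjusted p was under 0.05. Most genes lie within 0.5 of 0 in every mouse, Ncam1 lies farthest below 0, and Itgb2 has the highest mean.

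Among the integrins of leukocytes and platelets, only the beta chain Itgb2 passed. That was 1 of 6 tested members higher (16.7%), against 9.48% of all genes. Itgb2 codes for the chain shared by the leukocyte integrins that bind Icam proteins, and it was at 0.48, 0.51 and 0.31 in mice 11, 12 and 13. All 3 mice lay well above 0, with a mean of 0.44 ± 0.11 (adjusted p = 0.0105), which is 1.35-fold for base 2 and 2.73-fold for base 10. The call held without any 1 mouse, with adjusted p up to 0.0339. A second Itgb2 row was at 0.62 in mouse 11 and 0.82 in mouse 13 and listed at 0 in mouse 12, and a further row was listed at 0 in all 3. Averaged with the second row, the gene was at 0.54 (adjusted p = 0.00685).

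No alpha chain of this family passed. Itgal, the alpha chain that pairs with Itgb2 on lymphocytes, was at -0.10, 0.15 and -0.16, which spans 0. Itgax, an alpha chain of dendritic cells and macrophages, was listed at 0 on every array. Itgae, the alpha chain of T cells that hold on to epithelium, was at 0.11 ± 0.20 (adjusted p = 0.41), and its beta chain Itgb7 was at 0.081 ± 0.21 (adjusted p = 0.562). Both had mice on either side of 0. Itgb2l, a relative of Itgb2, was at -0.012 ± 0.24 and the platelet chain Itga2b at -0.072 ± 0.025. The rows of Itga2b had means of 0.055 and -0.20. None of these genes passed, and the median of the 6 tested members of the family was 0.034.

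Selplg, the selectin ligand with which leukocytes roll on vessel walls, was above 0 in every mouse, at 0.26, 0.11 and 0.37. Its mean of 0.25 ± 0.13 did not pass (adjusted p = 0.0647). The endothelial selectins Sele and Selp, which bind it, were listed at 0 on all arrays, so they have no estimate. Vcam1, the endothelial ligand of the alpha-4 integrins, was at 0.13, 0.15 and 0.21, a narrow range above 0, and did not pass (0.16 ± 0.042, adjusted p = 0.14). Icam2, a constitutive endothelial ligand of the Itgb2 integrins, was at 0.34, 0.16 and 0.056 and did not pass (adjusted p = 0.148). Of 8 measured endothelial markers 1 was lower (12.5%, against 9.97% of all genes), and their median was 0.030. That marker, Eng (-0.37 ± 0.15), did not pass without 1 of the mice (highest adjusted p 0.0635). Madcam1, a vessel ligand for Itgb7 integrins, was at -0.20, 0.13 and -0.67, with mouse 12 above 0 and the others below. It passed when mouse 12 was left out (-0.44, adjusted p = 0.0441).

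Markers of blood cells moved beside these genes, and their part in the leukocyte adhesion values was not tested. In bulk kidney RNA, more cells of a type and more RNA per cell cannot be told apart. Over all genes tested, 9.48% were higher and 9.97% lower, the shares to set beside the marker counts that follow. Of 5 measured pan-leukocyte markers, 1 was higher, Coro1a, an actin regulator of leukocytes (0.56 ± 0.13), and the means ran from -0.013 to 0.56. The common leukocyte antigen Ptprc was at 0.10 ± 0.057 and did not pass, and its rows differed, at -0.21 and 0.42. Of 7 monocyte and macrophage markers 5 were higher (71.4%) and 1 was lower (14.3%), with means from -0.72 to 0.65. Of the 5, Ctss and Fcgr1 kept their calls without any 1 mouse, and Lyz2, Aif1 and Mpeg1 did not (highest adjusted p 0.123, 0.251 and 0.246). The rows of Aif1 had means of 0.066 and 0.55. The lower marker was Csf1r (-0.72 ± 0.33, adjusted p = 0.00919), which also kept its call without any 1 mouse (highest adjusted p 0.0293). Of 7 neutrophil markers 2 were higher (28.6%) and 2 lower (28.6%), from -0.39 to 1.42. The rows of S100a8, 1 of the 2 higher, had means of 0.013 and 1.12. Among T and NK cells 2 of 4 markers were higher (50%), and among B cells 2 of 3 were lower (66.7%). The rows of Ighm, 1 of these 2 B cell markers, had means from -1.32 to -0.056. Calls of Ngp (neutrophil, lower) and Cd4 (T cell, higher) ended with 1 mouse left out (highest adjusted p 0.156 and 0.101). Of 2 measured platelet markers, Pf4 was higher (0.63 ± 0.19, adjusted p = 0.00552) and Gp9 was at -0.040 ± 0.39. Thy1, Cd79b and the platelet gene Gp1bb, of these lists, were listed at 0 on every array. The marker lists together had members in both directions. Itgb2 lay within the ranges of the pan-leukocyte, monocyte, neutrophil, T and NK cell and platelet markers, and above that of the B cell markers.

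**Figure D2:**
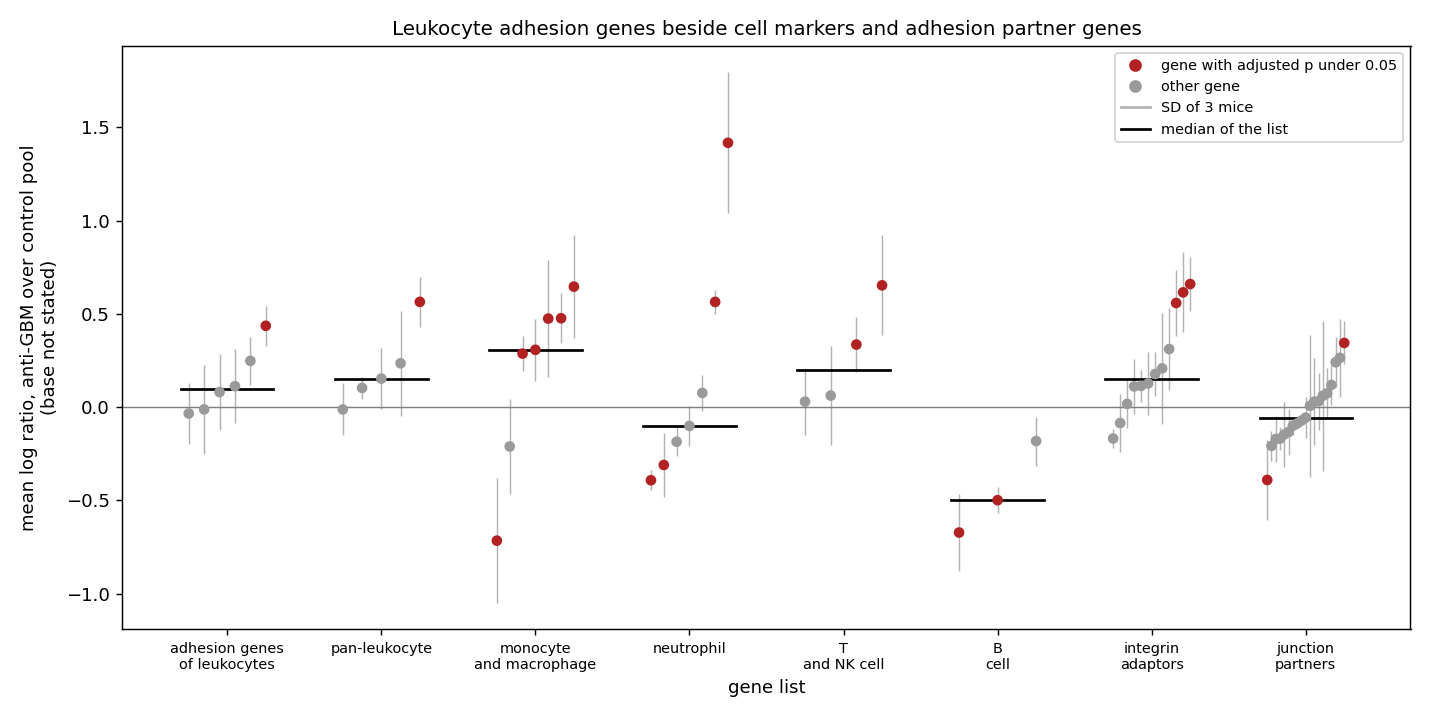
Mean log ratio (y axis, base not stated, with the SD of 3 mice) of each measured gene in 8 lists (x axis): 6 adhesion genes of leukocytes, markers of 5 blood cell groups, integrin adaptors and junction partners. Red points passed the test and black lines are list medians. In the first list 1 of 6 genes, Itgb2, passed, and the monocyte, neutrophil and junction lists hold called genes on both sides of 0.

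Of the tested beta chains of the other integrins, only Itgb1 and Itgb5 were called, in opposite directions. Itgb1, the partner of most matrix-binding alpha chains, was at 0.25, 0.40 and 0.35 in mice 11, 12 and 13, and its mean of 0.33 ± 0.075 was higher (adjusted p = 0.0213). Itgb5, which pairs with Itgav as a vitronectin receptor, was at -0.25, -0.30 and -0.28 and was lower, at -0.28 ± 0.026 (adjusted p = 0.0321). In each mouse the ratio of Itgb1 lay above 0 and that of Itgb5 below it. The sizes correspond to 1.26-fold and 1.21-fold for base 2, and to 2.16-fold and 1.90-fold for base 10. The SD of Itgb5, 0.026, was the smallest of the 10 tested genes of this family. Both calls ended when any 1 mouse was left out, while the means lay from 0.30 to 0.38 for Itgb1 (adjusted p up to 0.0623) and from -0.29 to -0.26 for Itgb5 (up to 0.143).

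A second row of Itgb1, listed at 0 in mouse 13, was at 0.30 and 0.26 in mice 11 and 12. The tested row of Itgb1 lies in a stretch of row numbers where very low values crowd together (at least 3 other rows with means below -1 within 100 row numbers), although it was not low itself. The gene fit without such rows has no value for Itgb1.

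The alpha chains did not pass. Itga6, a laminin receptor chain, was above 0 in every mouse, at 0.084, 0.33 and 0.32, with row means of 0.19 and 0.30, the second in a crowded stretch, and came nearest (adjusted p = 0.0719). Itgav, the partner of Itgb5, was at 0.36, -0.094 and 0.061, and mouse 12 lay on the other side of 0. Itga7, a laminin receptor of muscle, had a mean of -0.0085. Itga2, a collagen receptor chain, spread most of all tested members, from -0.69 in mouse 13 to 0.43 in mouse 12, with mouse 11 at 0.0019. Of the remaining beta chains, Itgb6, which activates latent TGF-beta together with Itgav, was below 0 in every mouse (-0.14 ± 0.072, adjusted p = 0.2). Itgb4, the partner of Itga6 in hemidesmosomes, was at -0.12 ± 0.22, with mouse 12 above 0. Counting the integrin-binding proteins Itgb1bp1 (0.049 ± 0.11) and Itgb1bp2 (-0.025 ± 0.11), 1 of 10 members was higher and 1 was lower. A further such protein, Itgb3bp, was listed at 0. The shares of this family that were called were 10% in each direction, against 9.48% higher and 9.97% lower of all genes.

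Of the integrins with values on some arrays only, Itga8, which the kidney needs in development and which mesangial cells carry, was at -0.71 in mouse 11 and 0.29 in mouse 13. Itga3, the alpha chain by which podocytes hold on to laminin, was at -0.19 and 0.18 in the same mice. Itga4, the alpha chain of the Vcam1 receptor, was at 0.35 in mouse 12 and -0.24 in mouse 13. In each of these the 2 measured mice lay on opposite sides of 0. The fibronectin receptor chain Itga5 had a value only in mouse 13 (-0.063), and the rows of Itgb3 disagreed, at -0.25 and 0.24 in mouse 12.

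Of a list of 27 genes for integrin adaptors and signalling proteins that work with them, 18 had a row on the array and 12 were tested. Of these 3 were higher (25%, against 9.48% of all genes) and 9 did not pass, and the median was 0.15. No adaptor was lower by limma, against 9.97% of all genes. Below 0 at an unadjusted p under 0.05 was 1 adaptor, the Ilk partner Lims1 (-0.17 ± 0.050, adjusted p = 0.132). Its rows had opposite signs, with means of -0.48 and 0.15. The actin crosslinker Flna, which binds beta chains, was at 0.54, 0.63 and 0.82, with a mean of 0.66 ± 0.14 (adjusted p = 0.00342). Actn1, another crosslinker at adhesion sites, was at 0.62 ± 0.21 (adjusted p = 0.00686). Apbb1ip, the adaptor through which leukocyte integrins are switched on, was at 0.57, 0.73 and 0.37 (0.56 ± 0.18, adjusted p = 0.00736). These 3 genes were further from 0 than any called integrin and kept their calls without any 1 mouse. Talin (Tln1, 0.11 ± 0.15), which activates beta chains, and Ilk (0.13 ± 0.17), which binds them, did not pass.

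Of 11 tested claudins 1 was higher (9.09%) and 1 was lower (9.09%), against 9.48% and 9.97% of all genes. Cldn8, a claudin of the distal nephron and collecting duct, was at 0.57, 0.087 and 0.40 in mice 11, 12 and 13. All were above 0 but mouse 12 was close to it, and the mean was 0.35 ± 0.24 (adjusted p = 0.0462). The call ended without mouse 11 (0.25, adjusted p = 0.243) or mouse 13 (0.33, adjusted p = 0.115), and with a running median by row number subtracted (adjusted p = 0.054). Cldn23 was at -0.18, -0.38 and -0.48, all below 0, with a mean of -0.35 ± 0.15 (adjusted p = 0.027). It did not pass without mouse 12 (adjusted p = 0.0655) or mouse 13 (adjusted p = 0.0784).

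The other 9 tested claudins did not pass. Cldn3, a barrier claudin of distal tubules, was below 0 in every mouse, at -0.21, -0.11 and -0.36 (adjusted p = 0.079). Cldn10, a paracellular ion channel of the nephron, was at 0.16, 0.16 and 0.22 and varied little (0.18 ± 0.032, adjusted p = 0.111). Its rows had means of 0.10 and 0.26. Cldn5, the main endothelial claudin, also found in podocytes, was at -0.34, -0.22 and -0.031, with mouse 13 nearest 0. Cldn2, the cation channel of the proximal tubule, was at 0.11 ± 0.13, Cldn7 at -0.11 ± 0.12, Cldn1, a claudin of the parietal epithelium of Bowman's capsule, at -0.11 ± 0.15, and Cldn4 at -0.024 ± 0.039. Cldn15 was at 0.10 ± 0.089. Cldn11 had a mean of 0.22 ± 0.41 that rested on mouse 12 (0.69), the others being at -0.049 and 0.017. Over the 11 tested claudins the median was -0.024. Cldn6 had a value only in mouse 13 and Cldn18 only in mouse 12, and 8 claudins, among them Cldn14 of the thick ascending limb, were listed at 0.

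Kidney markers of the segments where these claudins sit did not all follow one direction. Of the measured collecting duct markers 3 of 8 were lower (37.5%), and of the loop and distal tubule markers 3 of 5 (60%). Of the proximal tubule markers 2 of 7 were higher (28.6%). Over all genes tested, 9.97% were lower and 9.48% higher. With 1 mouse left out, calls ended for both proximal markers, Slc22a6 (highest adjusted p 0.113) and Slc22a8 (0.317), and for Kcnj1 of the loop and distal list (0.105). The water channels of the collecting duct differed, with Aqp2 at 0.12 ± 0.048, not past the test, and Aqp3 lower at -0.47 ± 0.20 (adjusted p = 0.0145). The part of these markers in the claudin values was not tested. Umod, Lrp2 and Pck1, abundant transcripts of the kidney tubule, and the podocyte genes Podxl and Synpo were listed at 0 on every array, so an exact 0 does not show that a transcript is absent.

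None of the 5 other tight junction proteins tested was called by limma, and Tjp1 alone had an unadjusted p under 0.05. Over all genes tested 19.4% were called, and 2602 of 7235 had an unadjusted p under 0.05, so 5 genes are too few to set the family apart. Tjp1, the scaffold ZO-1 that ties claudins to actin, was at -0.46, -0.45 and -0.038 in mice 11, 12 and 13. Mice 11 and 12 lay near -0.45 while mouse 13 was near 0, and the mean of -0.32 ± 0.24 missed the threshold (adjusted p = 0.0627) and passed without mouse 13 (-0.45, adjusted p = 0.0192). Leaving out mouse 11 gave -0.24 (adjusted p = 0.257) and leaving out mouse 12 gave -0.25 (adjusted p = 0.182). Subtracting a running median by row number brought Tjp1 to -0.18 (adjusted p = 0.201). Tjp3, a related scaffold, was at -0.12, -0.14 and -0.10, tightly below 0 but small (adjusted p = 0.258). Jam3 was at -0.19, -0.60 and 0.14 and Jam2 at 0.11, 0.092 and 0.22. Both are junctional proteins of endothelium and epithelium, and of these Jam2 kept 1 sign in all mice. A second row of Jam2, listed at 0 in mouse 12, was at 0.10 in mouse 11 and -0.050 in mouse 13. Occludin (Ocln), a membrane protein of the tight junction, was at 0.069 ± 0.068. The rows of Tjp1, Ctnnb1, Ctnna1 and the integrin gene Itgae lie in crowded stretches of low values.

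Among the catenins, Ctnnb1 (beta-catenin), which links cadherins to actin and also acts in Wnt signalling, was at -0.42, -0.32 and 0.17. As with Tjp1, mice 11 and 12 were below 0 and mouse 13 was not, and the gene passed only without mouse 13 (-0.37, adjusted p = 0.0338, against 0.284 with all mice). The alpha-catenin Ctnna1 was at -0.059 ± 0.066 and p120-catenin (Ctnnd1), which stabilises cadherins at the membrane, at 0.078 ± 0.12. The nearest to the threshold was Ctnnbl1, which despite its name is known as a splicing-associated protein, at 0.10, 0.41 and 0.27 (adjusted p = 0.0645). The Wnt inhibitor Ctnnbip1 was at -0.089 ± 0.12 and Ctnnal1 at 0.12 ± 0.16. None of the 6 was called by limma, and 1 of them, Ctnnbl1, had an unadjusted p under 0.05. Over all genes tested 19.4% were called, and 2602 of 7235 had an unadjusted p under 0.05, so 6 genes are too few to set the family apart. The neuronal catenins Ctnnd2 (mouse 11 only) and Ctnna2 (listed at 0) were not tested.

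Cadherins had no call among 6 tested genes, by limma and also at an unadjusted p under 0.05. Over all genes tested 19.4% were called, and 2602 of 7235 had an unadjusted p under 0.05. No cadherin kept 1 sign in all mice, against 56.5% of all genes. With only 6 genes, these counts are too small to set the family apart. The means of the 6 cadherins ran from -0.16 (Cdh2, N-cadherin of proximal tubules) to 0.024 (Cdh13). Cdh2 was at 0.093, -0.38 and -0.19, with mouse 11 above 0. Cdh6, a cadherin of the developing and adult proximal tubule, was at -0.034 ± 0.090, Cdh11, a mesenchymal cadherin, at -0.050 ± 0.094, Cdh3 at -0.049 ± 0.14 and Cdh4 at -0.076 ± 0.19. E-cadherin (Cdh1), the main cadherin of distal tubules, had a value only in mouse 13 (0.34), and the kidney cadherin Cdh16 was listed at 0 on all arrays. No statement on these is possible from the other mice. The Cdh15, Cdh20 and Cdh8 rows had values in 2 mice each, with opposite signs, and Cdh9 in 1 mouse. Cdh10, Cdh17, Cdh22 and Cdh23 were listed at 0.

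Of 8 tested protocadherins, cadherin relatives best known from neurons, 1 was lower (12.5%, against 9.97% of all genes) and 7 did not pass. Pcdh10 was at -0.52, -0.39 and -0.11, all below 0 with mouse 13 closest to it, and its mean was -0.34 ± 0.21 (adjusted p = 0.0412). It did not pass without mouse 11 (-0.25, adjusted p = 0.228) or mouse 12 (-0.31, adjusted p = 0.0984). Pcdh1, which is found in epithelia, was at -0.23, -0.10 and -0.34 and did not pass (adjusted p = 0.08). Pcdha5 (0.15 ± 0.053) and Pcdh7 (0.13 ± 0.11) were above 0 in every mouse, and Pcdha10 (-0.069 ± 0.068) and Pcdhga12 (-0.066 ± 0.057) were below it. The endothelial Pcdh12 was at 0.054 ± 0.27 and Pcdha6 at -0.030 ± 0.21. Genes of the clustered alpha and gamma protocadherins share their 3' exons, and the arrays may not tell their transcripts apart. Pcdh8, Pcdha7 and Pcdha12 had values in 1 or 2 mice and 4 more were listed at 0.

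Desmosomes were represented by few measured genes. Pkp3, a plakophilin of the desmosomal plaque, was at 0.30, 0.33 and 0.016, with row means of 0.13 and 0.30, and did not pass (adjusted p = 0.12). Without mouse 13 it passed narrowly (0.31, adjusted p = 0.0496). Dsg2, the desmoglein of simple epithelia, was at -0.10, -0.19 and -0.11, a narrow range below 0 (adjusted p = 0.211). Dsc2 and Pkp1 had values in 2 mice with opposite signs, and Dsc1, Dsc3 and Pkp4 were listed at 0.

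Proteins that work with these junctions mostly did not pass. Of 26 genes of this list 19 were tested, 1 was called in each direction and 17 did not pass, with a median of -0.056. The shares called were 5.26% in each direction, against 9.48% higher and 9.97% lower of all genes. Cgnl1, a protein of tight and adherens junctions, was at 0.38, 0.22 and 0.44 and was higher (0.34 ± 0.12, adjusted p = 0.0234). Mpp5, a scaffold of epithelial polarity, was at -0.55, -0.47 and -0.15 and was lower (-0.39 ± 0.21, adjusted p = 0.0287). Its partner Patj was below 0 in every mouse (-0.21 ± 0.082, adjusted p = 0.0853). Like Tjp1, Mpp5 was nearest 0 in mouse 13. Both calls of this list ended with 1 mouse left out (highest adjusted p 0.105 and 0.128). Plakoglobin (Jup), shared by desmosomes and cadherin junctions, was at 0.074 ± 0.14.

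Among the adhesion molecules of the immunoglobulin type and others, 2 of 6 tested genes were lower and 4 did not pass. The share lower was 33.3%, against 9.97% of all genes, and 1 of the 2 calls, Ncam1, came from 1 row. Epcam, an adhesion protein of tubule epithelium, was at -0.29, -0.23 and -0.54 in mice 11, 12 and 13, and its mean was -0.35 ± 0.17 (adjusted p = 0.0287), 1.28-fold lower for base 2 and 2.26-fold lower for base 10. Its rows gave -0.46, -0.26 and -0.79 (mean -0.50, adjusted p = 0.018 over rows) and -0.13, -0.19 and -0.30 (mean -0.21, adjusted p = 0.0991). Each was below 0 in every mouse, and mouse 13 was lowest in both. The gene did not pass without mouse 11 (-0.38, adjusted p = 0.0554) or mouse 13 (-0.26, adjusted p = 0.0794).

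Ncam1, an adhesion molecule of neurons that is also made in the developing kidney, had the lowest mean of all 61 genes, -0.99 ± 0.23 (adjusted p = 0.00137). Its rows disagreed in size. The row in a crowded stretch was at -2.33, -2.03 and -1.46, while the other was at -0.053, -0.049 and -0.035 and did not pass (adjusted p = 0.692 over rows). The mean and its call therefore came from 1 row, and without it the gene was at -0.046 (adjusted p = 0.669). Alcam, an adhesion molecule that binds the T cell protein Cd6, was above 0 in every mouse, at 0.44, 0.25 and 0.12 (0.27 ± 0.16, adjusted p = 0.0593), and passed without mouse 13 (0.34, adjusted p = 0.0473). Icam5 and Ncam2 had values in 1 or 2 mice and Icam4 was listed at 0. Icam1, Itgam, Itga1, F11r, Cldn16, Cldn19, Pkp2 and Dsp were not analysed here.

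**Figure D3:**
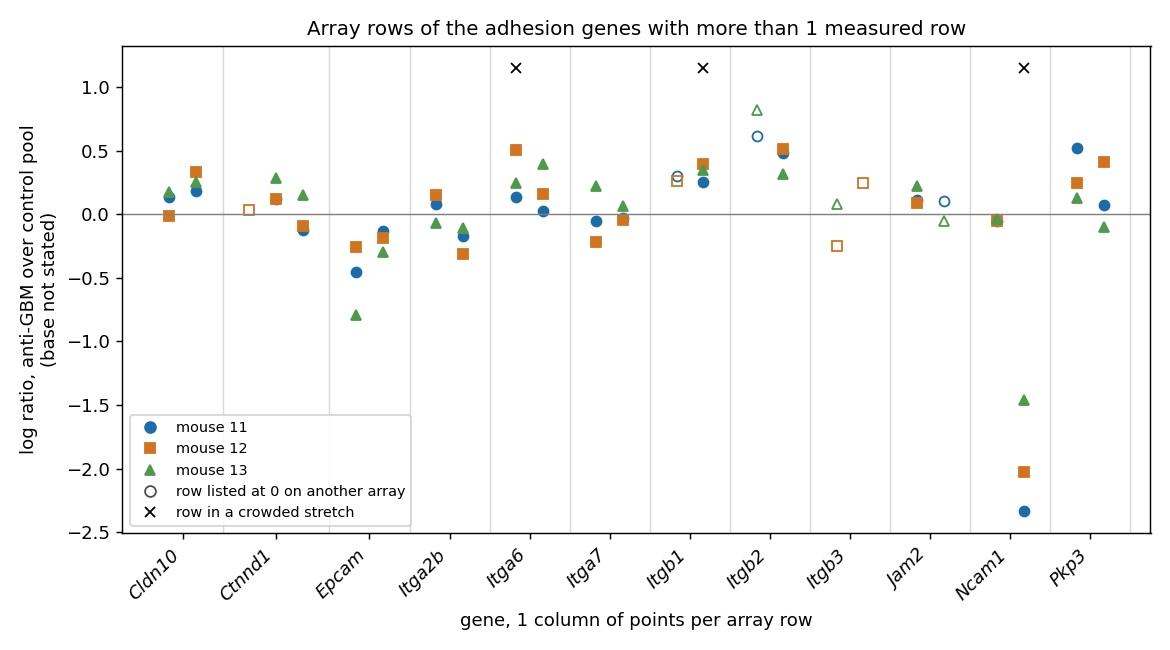
Log ratios (y axis, base not stated) in mice 11, 12 and 13 of each measured array row of the 12 adhesion genes with more than 1 such row (x axis). Open symbols are rows listed at 0 on another array, and crosses mark rows in crowded stretches of low values. The rows of Ncam1 lie far apart, at means of -1.94 and -0.046, while both rows of Epcam lie below 0.

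Mouse 13 differed from the others in several junction genes, but not only in these. Over the 9682 rows measured on all arrays it correlated at 0.684 with mouse 11 and 0.590 with mouse 12, while mice 11 and 12 correlated at 0.753. Tjp1, Ctnnb1, Jam3 and Pcdh10 had smaller log ratios in mice 11 and 12 than in mouse 13, and of these Pcdh10 alone passed the test over all mice. The tested rows of Tjp1 and Ctnnb1 lie in crowded stretches of low values. The medians of the 5 other tight junction proteins were -0.12, -0.14 and 0.0023 in mice 11, 12 and 13. Leaving out mouse 13 brought Alcam and Pkp3, above 0, and Tjp1 and Ctnnb1, below 0, past the threshold. Epcam, Cldn23, Cldn3 and Pcdh1 had the opposite order, with mouse 13 lowest of the 3. These patterns were picked after their values were seen and carry no test.

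**Figure D4:**
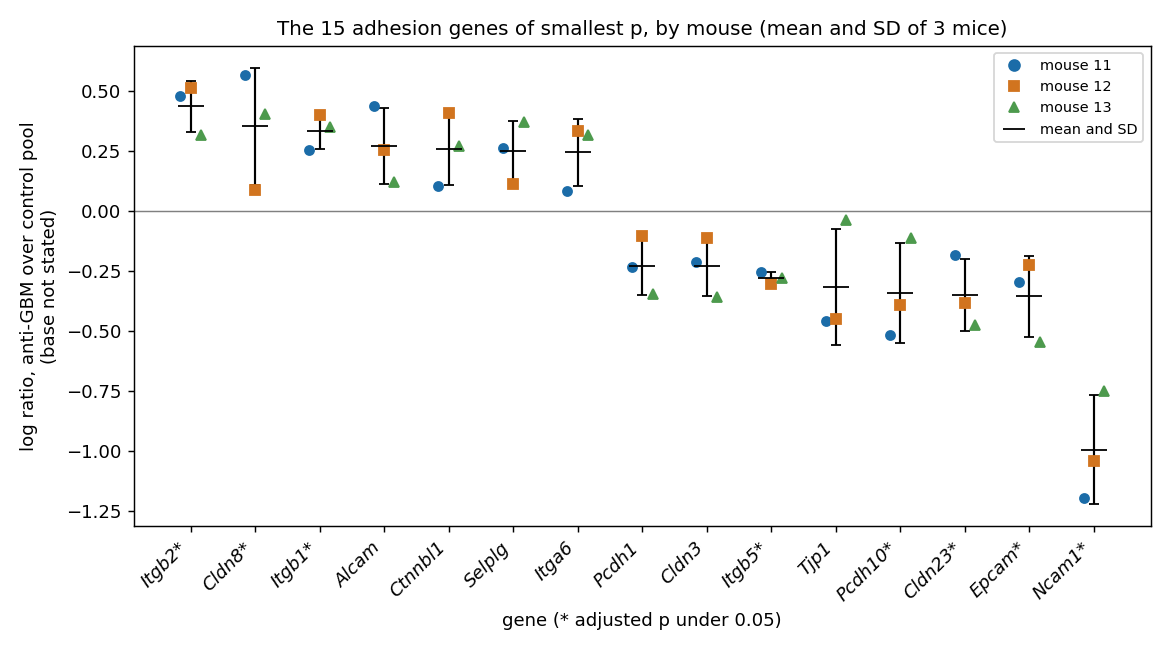
Log ratio (y axis, base not stated) of the 15 adhesion genes of smallest p (x axis) in mice 11, 12 and 13, with the mean and SD of the 3 mice. Asterisks mark the 8 genes past the threshold. Every one of the 15 has all 3 mice on the same side of 0, and Tjp1, Pcdh10 and Cldn8 show the wide spread between mice described for them.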

How the data were processed

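Kidney RNA of 3 anti-GBM mice was compared with 1 pool of control RNA on 2-colour arrays. The table the authors deposited gives 1 log ratio per row and array. Scanner, background correction, normalization, flags, log base, direction and probe build stay unknown (not given in the sources used here). Deposited values run from -3.62 to 2.74. Between 29.5% and 33.7% of an array's values are exactly 0 and were read as no estimate. Over the 9682 rows measured on all arrays, pairs of arrays correlated at 0.590 to 0.753 (Pearson, across rows, which share the control pool).

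Rows were named from the platform annotation (13738 rows with 1 gene, 52 with several, 2491 not listed), and 13694 gene numbers were found in RefSeq (GRCm38.p6) with 0 symbols changed. The median of an array's values other than 0 was subtracted from them, and rows of a gene measured on all 3 arrays were averaged. The mean of 3 mice was tested against 0 by lmFit and eBayes of limma 3.58.1 (R 4.3.3), with Benjamini-Hochberg adjustment over 7235 genes or 9682 rows. Python 3.11.15, pandas 2.3.3, numpy 2.4.6 and matplotlib 3.10.9 were used. The fit was tested on simulated data. A filter on dim rows was not run, since signal brightness was not used here.

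The members, lists and naming rule were chosen with earlier results of these data known. Named are all called members, the next 2 of each family by p, a set of kidney adhesion genes, and others added after their values were seen. Members fall into the families in the report. Coordinates are those of the RefSeq promoter table. The number of arrays limits the precision.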

Additional observations from a re-analysis of the deposited data

How the results depend on the processing

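With exact 0 taken as a value, 31 of 10698 genes passed, with 0 members higher and 0 lower by limma. An unadjusted p under 0.05 was found there for 14 of 107 members, beside 2228 of the 10698 genes. With a plain statistic without moderation 3 of 7235 genes passed, again with 0 members higher and 0 lower. Here 10 of 61 members had an unadjusted p under 0.05, beside 1634 of the 7235 genes. The plain statistic has only the degrees of freedom of 3 arrays. Leaving out 1 mouse gave 726 to 1032 genes against 1407, with 1 to 3 members higher against 3 and 2 to 4 lower against 5. Of the 8 calls, 3 were kept without mouse 11, 4 without mouse 12 and 3 without mouse 13, where the totals also hold 4 other genes (Alcam, Pkp3, Tjp1 and Ctnnb1). The lowest counts, 726 genes, 1 higher and 2 lower, came without mouse 11, and without mouse 12 the members lower were 3. Fewer arrays also lower the power. Only Itgb2 and Ncam1 kept their calls without any 1 mouse.

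All 8 calls were kept without centring, with arrays scaled to the same spread and with robust moderation. With 1 row per gene 7 were kept, all but Ncam1, and with the running median by row number subtracted 7, all but Cldn8. With rows measured on 2 or 3 arrays 6 were kept, without Cldn8 (adjusted p = 0.0598) and Pcdh10 (0.0544), and without rows in crowded stretches 6, where Ncam1 lost its call and Itgb1 had no row left. No called member changed sign under any of these settings. No paired analysis was possible because there is 1 group, compared with a single pool. Signal over background was not used here, so which ratios rest on dim spots is not known.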

Other observations

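Of 16 matrix proteins that integrins bind, 10 were tested, with 2 higher, 2 lower and 6 not past the test. That was 20% in each direction, against 9.48% higher and 9.97% lower of all genes. Tnc, tenascin C of injured and remodelling tissue, was at 0.40, 0.43 and 0.44 in mice 11, 12 and 13 (0.42 ± 0.022, adjusted p = 0.00857 by limma). Col4a1, a collagen chain of basement membranes, was at 0.39 ± 0.18 (adjusted p = 0.0234) and did not pass without 1 of the mice (highest adjusted p 0.0944). Fbln2, a fibulin of basement membranes and vessel walls, was at -0.76 ± 0.27 (adjusted p = 0.00534), and its row lies in a crowded stretch of low values. Thbs1, thrombospondin, was at -0.25, -0.32 and -0.25, a narrow range below 0 (adjusted p = 0.0349), and did not pass without 1 of the mice (highest adjusted p 0.155). Among the laminin chains that Itgb1 and Itga6 pairs bind, Lamb2 (0.23 ± 0.23), Lamc1 (0.16 ± 0.059) and Lama1 (0.19 ± 0.20) were above 0 in every mouse and Lama5 (-0.22 ± 0.13) below it, none past the test. Fibronectin (Fn1) was at 0.15, 0.033 and -0.38, with mouse 13 on the other side of 0.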
